A study of Mus musculus with 43 samples.

Results

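A set of 10 genes linked to the passage of fat from the blood through capillary endothelium to heart muscle was followed across the series: Cd36, Fabp4, Gpihbp1, Lpl, Car4, Meox2, Tcf15, Aqp1, Rgcc and Angptl4. The genes were found by matching the Ensembl ID of each row to a gene symbol, which gave 10 of the 57010 genes in the deposited count table. RNA from mouse hearts was sequenced in bulk, from whole hearts, from endothelial cells (EC) and from cardiomyocytes (CM). The mutant group, Q150X, carries a stop codon that CRISPR/Cas9 placed in Vegfa, the gene of a main growth factor for blood vessels, and the labels also mark it HO. It was set against wild type (WT) at homeostasis, meaning uninjured mice, and after myocardial infarction (MI). Whole hearts comprised 3 Q150X and 3 WT libraries at homeostasis, 4 Q150X and 4 WT libraries 7 days after MI, and 4 Q150X and 3 WT libraries 30 days after MI. Endothelial cells comprised 3 Q150X and 3 WT libraries at homeostasis and 2 Q150X and 2 WT libraries 3 days after MI. Cardiomyocytes comprised 3 Q150X and 3 WT libraries at homeostasis and 3 Q150X and 3 WT libraries at day 3. The labels give no strain, age or sex, no sham surgery, and no statement that libraries of a group came from separate animals, so p-values measure the spread between libraries, part of which may be technical.

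The heart burns mostly fatty acids, and these reach it in lipoprotein triglyceride and as free fatty acids bound to albumin. In mice, heart muscle cells make lipoprotein lipase (LPL), which GPIHBP1 on capillary endothelium carries to the vessel lumen, where LPL frees fatty acids from triglyceride. CD36 takes up fatty acids and FABP4 binds them inside the endothelial cell. MEOX2 and TCF15 are transcription factors that act as a pair in heart capillary endothelium and promote fatty acid uptake. ANGPTL4 inhibits LPL. CAR4, a carbonic anhydrase of the luminal surface, AQP1, a water channel, and RGCC, a cell cycle regulator, are used as markers of heart capillary endothelium.

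The proximal promoters of Cd36 and Car4, which rose in both genotypes at day 7, and of Meox2 and Aqp1, which fell in WT hearts at day 7, are shown so that both directions can be seen. They are the 250 bases before an annotated start, read 5′ to 3′ in the direction of the gene. They come from RefSeq on build GRCm38.p6, which differs from the GRCm39 build of the counts. The Cd36 window lies inside the annotated span of the gene, chr5:17781690-17888801, so it does not precede the outermost start. Promoters were matched for 5 of the 10 genes. Capitals mark each match, on either strand, to AGGTCA (a core bound by nuclear receptors such as the PPARs), TAATTA (a core bound by many homeodomain factors) or CANNTG (the E-box bound by basic helix-loop-helix factors). The Cd36 window is chr5:17835897-17836146 on the minus strand, the Car4 window chr11:84957504-84957753, the Meox2 window chr12:37108290-37108539 and the Aqp1 window chr6:55336049-55336298, the last 3 on the plus strand.
Cd36: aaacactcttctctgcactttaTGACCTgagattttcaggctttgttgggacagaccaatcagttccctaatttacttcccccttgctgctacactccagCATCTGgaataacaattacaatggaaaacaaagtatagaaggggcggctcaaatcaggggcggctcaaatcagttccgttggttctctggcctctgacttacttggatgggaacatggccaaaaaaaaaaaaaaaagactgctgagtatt
Car4: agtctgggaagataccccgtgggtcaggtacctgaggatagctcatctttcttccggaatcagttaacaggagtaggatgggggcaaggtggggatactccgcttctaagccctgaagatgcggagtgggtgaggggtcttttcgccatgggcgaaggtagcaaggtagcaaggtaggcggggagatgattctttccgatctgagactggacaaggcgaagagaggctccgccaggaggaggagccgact
Meox2: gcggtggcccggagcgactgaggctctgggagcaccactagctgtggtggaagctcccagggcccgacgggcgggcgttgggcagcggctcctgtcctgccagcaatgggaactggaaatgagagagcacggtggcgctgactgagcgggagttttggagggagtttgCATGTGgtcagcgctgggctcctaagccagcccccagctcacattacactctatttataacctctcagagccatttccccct
Aqp1: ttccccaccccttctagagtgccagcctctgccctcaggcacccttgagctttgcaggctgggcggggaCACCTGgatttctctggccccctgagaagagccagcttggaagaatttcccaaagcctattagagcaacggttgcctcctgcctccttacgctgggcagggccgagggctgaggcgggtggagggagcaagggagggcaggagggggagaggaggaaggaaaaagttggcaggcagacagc
The Cd36 window held 1 AGGTCA match, read as TGACCT, and 1 E-box. The Meox2 and Aqp1 windows each held 1 E-box, and the Car4 window held no match to any of the 3 motifs. Among 32817 RefSeq windows of this length, 14.03% held AGGTCA, 4.845% held TAATTA and 66.22% held CANNTG. A match describes letters only.

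Total counts per library ranged from 25948706 to 37356177 in hearts, from 32008175 to 45243608 in EC and from 25035490 to 42246348 in CM. Levels are given in CPM, read counts scaled to library size, after TMM scaling, a correction for library composition, within each compartment. In all, 4 libraries stood apart: replicate 1 of both genotypes in homeostasis hearts held the atrial gene Myl7 at up to 525 CPM, against 2.76 CPM or less in every heart library after MI, replicate 4 of the WT day-7 hearts held the placental gene Tpbpa at 467 CPM, and replicate 2 of the Q150X day-3 EC held the lymphocyte gene Rag1 at 1290 CPM. Vegfa had 98.2 to 124 CPM in Q150X EC and 98.1 to 104 CPM in WT EC at homeostasis, and 455 to 622 CPM in Q150X CM and 456 to 554 CPM in WT CM; gene counts do not show the stop codon. Day-3 EC libraries had Xist at 494 to 1089 CPM and Ddx3y at 0.501 CPM or less, against Xist at 1.19 CPM or less and Ddx3y at 188 to 267 CPM in EC at homeostasis, so time after MI and sex cannot be told apart in EC. Myl7 also split these libraries, with 4.25 CPM or less in day-3 EC, against 28.9 to 92.0 CPM in EC at homeostasis. In CM of all 4 groups Ddx3y was at 91.8 CPM or more.

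In uninjured WT mice, all of the genes but Lpl had higher estimates in endothelial cells than in cardiomyocytes, while Lpl stood out in the muscle cells. For this comparison counts were scaled over the 18 homeostasis libraries together. Fabp4 had 3549, 4464 and 4056 CPM in EC, against 74.1, 194 and 82.4 CPM in CM. Meox2 had 119, 136 and 120 CPM in EC, against 3.54, 8.41 and 6.16 CPM in CM. The groups were far apart for both. Lpl had 485, 572 and 471 CPM in EC, against 8221, 10516 and 10531 CPM in CM, the opposite order. Cd36 had 3573, 4070 and 3243 CPM in EC, against 2241, 2730 and 2458 CPM in CM, so the fatty acid receptor was abundant in both cell types.

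Of the 10 genes, 8 were called higher in EC than in CM and 1, Lpl, lower, by edgeR's quasi-likelihood test with Benjamini-Hochberg adjusted p under 0.05 over all 17617 genes tested; of all genes, 37.8% were called higher and 32.6% lower. The genes were chosen as capillary endothelial genes, so their direction here checks the label and is no finding. The log2 fold change, EC over CM, was 5.36 ± 0.51 (SE) for Tcf15, 5.11 ± 0.37 for Fabp4, 4.37 ± 0.30 for Meox2 and -4.26 ± 0.50 for Lpl. Rgcc, Car4, Aqp1 and Gpihbp1 lay between 3.55 and 3.74, and Angptl4 was at 1.97 ± 0.56. Cd36 differed by 0.55 ± 0.28 (edgeR adjusted p = 0.0841) and was not called. The scaling matters for this pair: composition factors were 1.48 to 1.62 in EC and 0.567 to 0.708 in CM, and with library size alone the median of all genes moved to 1.52 and Cd36 was called at 1.88.

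Against whole heart, 9 of the 10 genes were called higher in WT EC and Lpl lower (-3.28 ± 0.48), with 29.7% of all genes higher and 31.4% lower. Fabp4 was at 2.92 ± 0.33 and Meox2 at 2.60 ± 0.27, the 2 largest positive estimates. The remaining positive estimates ran down to 1.22 ± 0.28 for Cd36. Angptl4 (1.37 ± 0.55, edgeR adjusted p = 0.0388) lost its call when any of these WT libraries was left out, except replicate 1 of the hearts; over the 6 fits its estimate ran from 1.16 to 1.58. Lpl thus went against the endothelial label of the set, since the muscle cells had the higher level.

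Per kilobase of transcript, the level in WT EC at homeostasis was highest for Fabp4 (6745 CPM per kb), then Cd36 (1603), Aqp1 (862), Gpihbp1 (380) and Rgcc (293). Angptl4 was lowest at 10.6 CPM per kb. In WT CM, Lpl led at 1699 CPM per kb, followed by Cd36 at 522, and every other member was at 93.2 CPM per kb or less. In WT hearts at homeostasis Lpl led at 1256 CPM per kb, ahead of Fabp4 at 620 and Cd36 at 477. The whole-heart order thus held genes that lead in each of the 2 cell types.

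At day 7 after MI the genes did not all move one way. Angptl4, the LPL inhibitor, rose by over 3 on the log2 scale in both genotypes, Fabp4, Car4 and Cd36 rose in both as well, Gpihbp1 and Rgcc rose in Q150X hearts, and Meox2 and Aqp1 fell in WT hearts. Lpl and Tcf15 were not called in either genotype. Angptl4 had 112, 76.2, 88.3 and 106 CPM in Q150X hearts at day 7, against 3.83, 5.24 and 10.8 CPM in Q150X hearts at homeostasis. It had 91.7, 115, 59.7 and 98.3 CPM in WT hearts at day 7, against 12.6, 6.36 and 9.62 CPM in WT hearts at homeostasis. Every day-7 library was above every homeostasis library. Here and below, groups without overlap are a description, and the share of all genes so separated is given only where it was computed. The log2 fold change was 3.85 ± 0.47 in Q150X (edgeR adjusted p = 2.16e-05) and 3.26 ± 0.45 in WT (edgeR adjusted p = 0.000147).

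**Figure D1:**
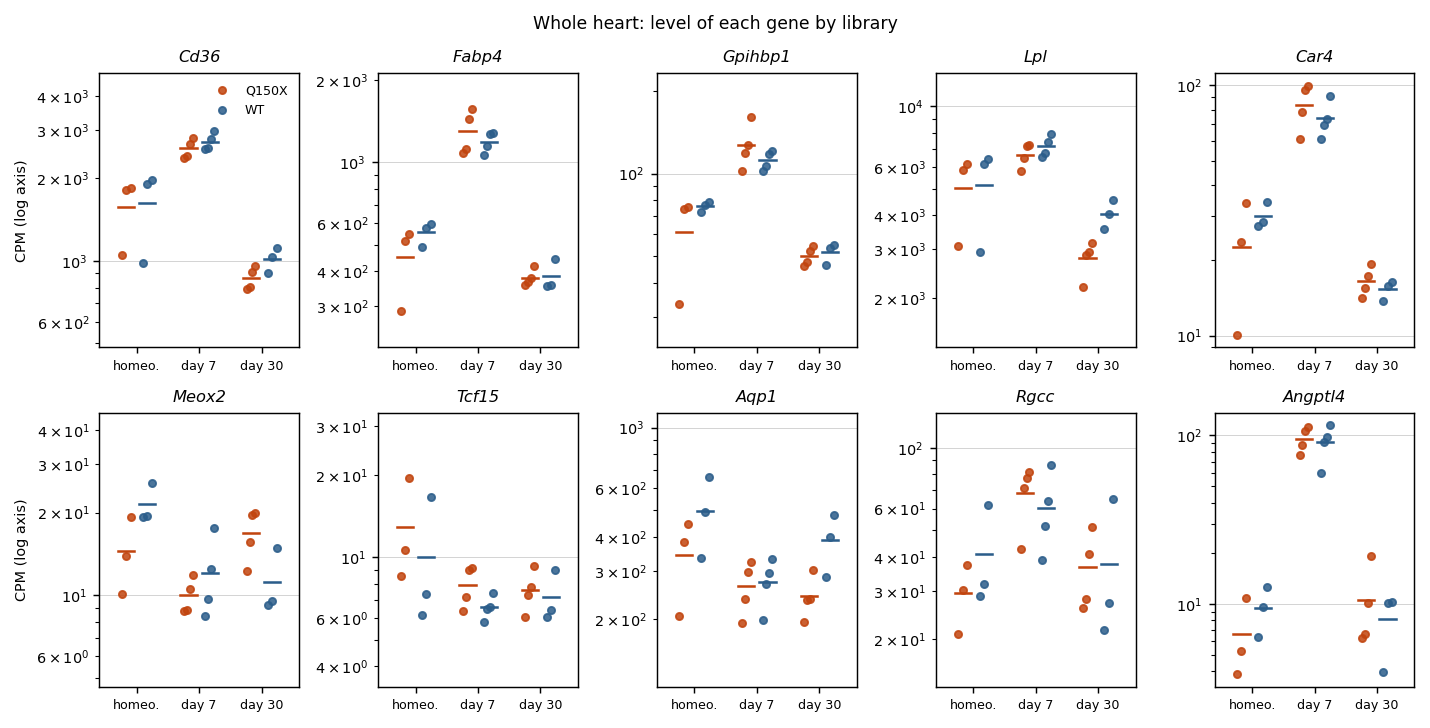
Level of the 10 genes in each whole-heart library, in TMM-scaled CPM on a log axis, at homeostasis, day 7 and day 30 after MI (Q150X left, WT right; points are libraries and bars group means). Angptl4 sits at 59.7 to 115 CPM at day 7 and at 19.3 CPM or less in every other heart library, and the lowest Cd36 and Lpl points at homeostasis are replicate 1 of each genotype.

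Fabp4 had 1117, 1079, 1442 and 1562 CPM in Q150X hearts at day 7, against 286, 549 and 517 CPM in Q150X hearts at homeostasis. In WT hearts it had 1145, 1268, 1062 and 1284 CPM at day 7, against 493, 575 and 598 CPM at homeostasis. The groups did not overlap, and the log2 fold change was 1.53 ± 0.19 in Q150X and 1.10 ± 0.19 in WT. Car4 had 61.0, 78.6, 95.8 and 99.7 CPM in Q150X hearts at day 7, against 10.1, 33.9 and 23.6 CPM at homeostasis. In WT hearts Car4 had 73.7, 61.1, 69.2 and 91.1 CPM at day 7, against 27.5, 34.3 and 28.3 CPM at homeostasis. Both genotypes again separated fully, at 1.89 ± 0.28 in Q150X and 1.30 ± 0.27 in WT. Cd36 had 2423, 2814, 2380 and 2676 CPM in Q150X hearts at day 7, against 1047, 1852 and 1816 CPM at homeostasis. It had 2965, 2571, 2791 and 2558 CPM in WT hearts at day 7, against 982, 1979 and 1906 CPM at homeostasis. Its change was the smallest of the risers, 0.71 ± 0.21 in Q150X and 0.75 ± 0.21 in WT.

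Gpihbp1 ranged from 102 to 161 CPM in Q150X hearts at day 7, against 33.5, 74.4 and 75.7 CPM at homeostasis (1.06 ± 0.20). In WT hearts it ranged from 102 to 121 CPM at day 7, against 72.2 to 78.9 CPM at homeostasis, with no overlap but no call (0.56 ± 0.20, edgeR adjusted p = 0.0711). Rgcc was called in Q150X hearts (1.21 ± 0.39), where it had 42.6, 71.6, 77.9 and 81.3 CPM at day 7, against 20.9, 30.2 and 37.3 CPM at homeostasis. In WT hearts Rgcc overlapped between the times. Meox2 had 12.4, 17.6, 8.40 and 9.66 CPM in WT hearts at day 7, against 25.6, 19.5 and 19.4 CPM at homeostasis (-0.84 ± 0.25), and Aqp1 had 296, 198, 332 and 270 CPM at day 7, against 663, 493 and 335 CPM at homeostasis (-0.86 ± 0.27). In Q150X hearts the estimates were -0.53 ± 0.26 for Meox2 and -0.38 ± 0.27 for Aqp1, neither called. Lpl was at 0.41 ± 0.24 in Q150X and 0.47 ± 0.24 in WT.

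In all, 6 of the 10 genes rose and 0 fell in Q150X hearts at day 7, where 13.8% of all genes rose and 12.3% fell. In WT hearts 4 rose and 2 fell, where 7.65% of all genes rose and 6.07% fell. The median log2 fold change of the 10 was 0.88 in Q150X and 0.56 in WT, against 0.06 and 0.05 over all genes. The rises of Angptl4, Fabp4 and Car4 in both genotypes, and of Gpihbp1 in Q150X, held when any 1 library was left out. Cd36 lost its call without replicate 1 of the homeostasis hearts in either genotype (0.49 in Q150X and 0.49 in WT) and without replicate 1 of the WT day-7 hearts (0.70). Rgcc in Q150X lost it without any of 5 libraries: replicates 1 and 2 at homeostasis and replicates 2, 3 and 4 at day 7. Meox2 in WT kept its call in 1 of 7 such fits (without replicate 2 at day 7) and Aqp1 in 2 of 7 (without replicate 3 at either time), so both falls rest on few fits. With replicate numbers as a block Rgcc in Q150X (1.10) was not called. Without the libraries that stood apart, 5 rose in WT (Gpihbp1 joined at 0.53 and Meox2 and Aqp1 were not called), and in Q150X 5 rose and Meox2 fell (-0.73), with Rgcc not called; in either direction 17.8% of all genes were called in WT and 28.8% in Q150X.

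Endothelial identity genes as a whole moved little at day 7: of 12 such genes 0 were called in Q150X hearts and 1, Kdr, in WT hearts, and their median log2 fold change was 0.02 in Q150X and -0.21 in WT. In bulk hearts, fewer endothelial cells and less RNA per cell cannot be told apart. Set against the mean of those 12 genes in the same library, Angptl4 was higher by 3.67 in Q150X and 3.37 in WT, Car4 by 1.89 and 1.49, Fabp4 by 1.48 and 1.33, Gpihbp1 by 1.04 and 0.78, and Meox2 lower, at -0.54 and -0.60 (log2 differences, a description). Adipocytes also make Fabp4, Cd36, Lpl and Angptl4. The 8 adipocyte genes summed to 69.5 to 106 CPM in Q150X hearts at day 7, against 27.3 to 179 CPM at homeostasis, and to 74.7 to 87.0 CPM in WT hearts, against 29.4 to 174 CPM. At day 7 nearly all of that sum was Lipe, a lipase that other tissues also make, with 69.3 to 106 CPM in Q150X hearts and 74.4 to 86.9 CPM in WT hearts. The other 7 adipocyte genes were at 0.382 CPM or less in every day-7 heart, with Plin1 and Lep at 0, and the part of adipocytes in the result was not tested. The 8 macrophage and leukocyte genes summed to 423 to 988 CPM in Q150X hearts at day 7, against 188 to 285 CPM at homeostasis, and to 266 to 525 CPM in WT hearts, against 229 to 311 CPM. Of these 8 genes, 5 rose in Q150X and 1 in WT, and their part in the result was not tested. Replicate 1 of the WT homeostasis hearts, highest for Aqp1, was also highest for the erythroid genes (1880 CPM summed, against 153 and 97.6 CPM in the other two), and red cells make Aqp1; this too was not tested.

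The pathway genes beyond the 10 were counted in 3 lists: regulators, uptake genes and genes that handle LPL. Of 17 regulators, 2 rose and 6 fell in Q150X hearts and 2 rose and 5 fell in WT hearts at day 7. Nrp1, a co-receptor for VEGF-B and VEGF-A, fell by 1.37 in Q150X and by 1.49 in WT on the log2 scale. The peptide Apln fell by 3.48 and 3.36, its receptor Aplnr by 1.84 and 1.64, and Ppara, a nuclear receptor for fatty acids, by 1.63 and 1.60. Pparg, which in fat and endothelium drives Cd36 and Fabp4, rose in Q150X (0.89 ± 0.23) with Hilpda (0.61), a lipid droplet protein; Hilpda (0.66) and Hif1a (0.55) rose in WT, where Notch1 fell by 0.80. Of the uptake genes, Slc27a1 (1.16) and Slc27a3 (1.25) rose in Q150X, and 1 rose in WT, the fatty acid transporter Slc27a1 (1.19 ± 0.25). Of 13 LPL-handling genes measured, 1 rose and 3 fell in Q150X (Sdc4 0.83, and Lmf1 -1.04, which LPL needs to fold, Hspg2 -0.61 and Sel1l -0.35), and 1 fell in WT (Hspg2 -0.71).

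At day 30 after MI the group means of Cd36 were below those of the other heart groups in both genotypes. In Q150X hearts 2 of the 10 genes fell and 0 rose, where 14.2% of all genes fell and 15.6% rose. In WT hearts 2 fell and 0 rose, where 3.49% of all genes fell and 5.45% rose. Cd36 had 912, 789, 804 and 959 CPM in Q150X hearts at day 30, against 1047, 1852 and 1816 CPM at homeostasis (-0.86 ± 0.20, edgeR adjusted p = 0.00413). Lpl had 2860, 3159, 2189 and 2925 CPM in Q150X hearts at day 30, against 3095, 6121 and 5853 CPM at homeostasis (-0.85 ± 0.24, edgeR adjusted p = 0.0106). The Cd36 groups were separate, and the Lpl groups overlapped only through replicate 1 at homeostasis.

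In WT hearts Cd36 had 1115, 903 and 1030 CPM at day 30, against 982, 1979 and 1906 CPM at homeostasis, and was not called (-0.68 ± 0.22, edgeR adjusted p = 0.0592). The genes called there were Car4, with 15.8, 13.7 and 16.4 CPM at day 30 against 27.5, 34.3 and 28.3 CPM at homeostasis (-0.97 ± 0.29), and Meox2, with 9.52, 14.8 and 9.20 CPM against 25.6, 19.5 and 19.4 CPM (-0.94 ± 0.28). Both groups were separate. All 10 WT estimates were below 0, with a median of -0.51 against -0.02 over all genes; in Q150X 7 were below 0, with a median of -0.37 against -0.03. Angptl4 had 19.3, 10.2, 6.68 and 6.28 CPM in Q150X hearts and 3.98, 10.3 and 10.2 CPM in WT hearts at day 30, overlapping the homeostasis libraries in both.

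The day-30 counts changed with the libraries that stood apart, among them replicate 1 of the homeostasis hearts, low in Cd36 and Lpl in both genotypes. With all 3 heart libraries that stood apart left out, 6 genes fell in each genotype, where 44.3% of all genes in Q150X and 34% in WT were called in either direction. Without replicate 1 of the WT homeostasis hearts alone, 3 fell in WT (Cd36, Lpl and Car4), where 21.9% of all genes were called. With all 3 left out, the genes that fell in Q150X were Cd36 (-1.08), Lpl (-1.10), Car4 (-0.80), Aqp1 (-0.77), Gpihbp1 (-0.58) and Fabp4 (-0.49). Those in WT were Car4 (-1.03), Cd36 (-0.93), Meox2 (-0.79), Lpl (-0.63), Fabp4 (-0.61) and Gpihbp1 (-0.55). Cd36, Lpl, Car4, Fabp4 and Gpihbp1 were in both lists. In the fit of all libraries, leaving out any 1 gave 1 to 6 calls in Q150X and 0 to 3 in WT. Cd36 in Q150X was called in 7 of 7 such fits, Lpl in 5 (lost without replicate 2 or 3 at homeostasis), and Car4 and Meox2 in WT in 1 of 6 each: Car4 was called without replicate 1 at homeostasis and Meox2 without replicate 2 at day 30.

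Endothelial identity genes were lower too at day 30: 3 of 12 fell in Q150X hearts (Cdh5, Kdr, Esam) and 3 in WT hearts (Tek, Kdr, Egfl7), with medians of -0.29 and -0.31. Relative to the mean of those 12 genes, Fabp4 and Gpihbp1 moved by 0.05 and 0.04 in Q150X and by -0.12 and -0.14 in WT. Car4 was at -0.04 in Q150X and at -0.52 in WT, where the times did not overlap. Meox2 was at 0.47 in Q150X and -0.50 in WT, overlapping between times in each. Cd36 was at -0.58 in Q150X and -0.20 in WT, and Lpl at -0.56 in Q150X and 0.13 in WT. The WT homeostasis libraries spread widely on this scale, from 3.21 to 4.48 for Cd36 and from 4.79 to 6.17 for Lpl. Both genes overlapped between times in WT, and replicate 1 of those libraries, low in both, stood apart. The adipocyte genes summed to 19.7 to 206 CPM in Q150X hearts and 34.5 to 149 CPM in WT hearts at day 30, over the homeostasis ranges of 27.3 to 179 CPM and 29.4 to 174 CPM. The 8 cardiomyocyte genes, in the cells that lead in Lpl, summed to 22892 to 35462 CPM in Q150X hearts at day 30, against 49934 to 60910 CPM at homeostasis, and to 38540 to 43156 CPM in WT hearts, against 39555 to 53308 CPM; 6 of the 8 fell in Q150X and 1 in WT. Macrophage and leukocyte genes summed to 526 to 1415 CPM in Q150X hearts at day 30, against 188 to 285 CPM at homeostasis, and to 424 to 692 CPM in WT hearts, against 229 to 311 CPM; all 8 rose in Q150X and 2 in WT. The part of these cell types in the result was not tested.

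Of the pathway genes at day 30, 6 of 17 regulators fell in Q150X hearts, among them Epas1 (-0.78), a hypoxia-response factor, Nrp1 (-0.79), the VEGF receptor Flt1 (-0.85) and Ppara (-1.06), and 0 rose. In WT hearts Nrp1 fell by 0.88 and Meox1, a relative of Meox2, rose by 1.85. Of the uptake genes, Acsl1 (-1.22), which activates fatty acids with coenzyme A in muscle, and the lipoprotein receptor Vldlr (-0.96) fell in Q150X, and Acsl5 (0.83), Slc27a3 (1.33) and Lrp1 (0.99) rose. In WT, 1 of 17 was called, Cavin2 (-0.87), a caveola protein. Of the LPL-handling genes, Sdc1 (2.40), Sdc4 (1.22) and Apoe (2.15) rose and Hspg2 (-0.63) and Sel1l (-0.37) fell in Q150X, and in WT the syndecan Sdc4 rose by 2.36 ± 0.31 and 0 fell.

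In isolated endothelial cells at day 3, the members were mostly lower than at homeostasis, with calls by edgeR in Q150X EC only. Xist, Ddx3y and Myl7 also split these libraries by time, so time after MI and sex cannot be told apart here. Of the 10 genes, 5 fell and 0 rose in Q150X EC, where 15.1% of all genes fell and 18.7% rose: Fabp4 (-2.97 ± 0.73), Cd36 (-2.54 ± 0.72), Car4 (-2.46 ± 0.67), Angptl4 (-1.90 ± 0.53) and Rgcc (-1.37 ± 0.25). In WT EC 0 of 10 were called by edgeR, where 2.81% of all genes fell and 6.71% rose. Of the 10, 1 gene, Rgcc, passed an unadjusted p under 0.05 (-0.89 ± 0.24, edgeR adjusted p = 0.0536), against 4566 of all 18223 genes tested. DESeq2 called 1, also Rgcc, against 3466 of all genes. In WT EC 9 of the 10 estimates were below 0, with a median of -0.95 against 0.01 over all genes.

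Cd36 had 2024 and 324 CPM in Q150X EC at day 3, against 6427, 4746 and 9244 CPM at homeostasis. In WT EC it had 2153 and 2225 CPM at day 3, against 5342, 6073 and 4929 CPM at homeostasis. Fabp4 had 1568 and 249 CPM in Q150X EC at day 3, against 7440, 5304 and 8658 CPM at homeostasis, and 2044 and 2274 CPM in WT EC at day 3, against 5306, 6660 and 6164 CPM at homeostasis. Neither gene overlapped between times in either genotype, and in Q150X the second library was far below the first. Rgcc was alike in CPM in all 4 day-3 libraries, with 148 and 144 CPM in Q150X and 136 and 155 CPM in WT. At homeostasis it had 430, 285 and 421 CPM in Q150X and 220, 290 and 297 CPM in WT. Lpl stood at 1732 and 184 CPM in Q150X EC at day 3, against 635, 645 and 2671 CPM at homeostasis. In WT EC Lpl had 1148 and 1450 CPM at day 3, against 725, 853 and 715 CPM at homeostasis, the only gene of the 10 with every WT day-3 library above every WT homeostasis library, which held for 32.6% of all genes (0.77 ± 0.87, not called).

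**Figure D2:**
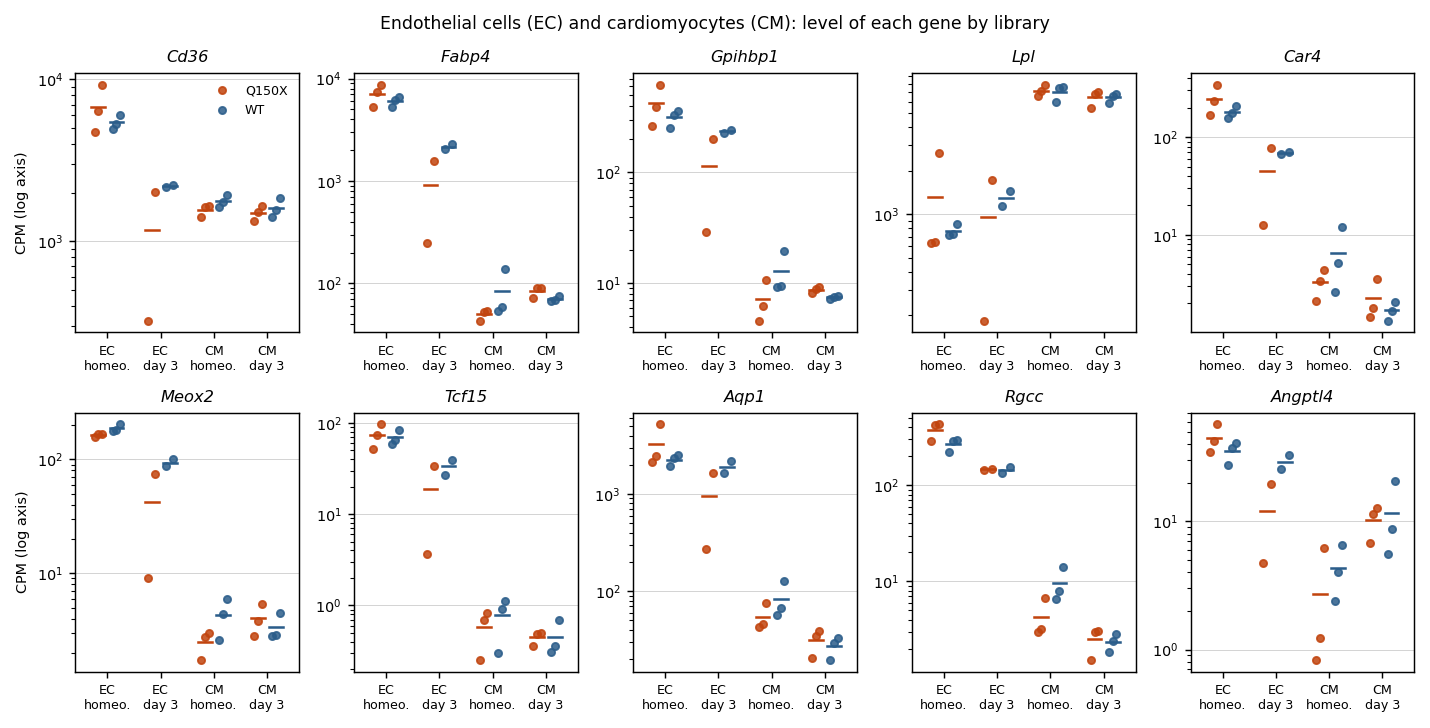
Level of the 10 genes in each EC and CM library, in CPM on a log axis (scaled within each compartment), at homeostasis and day 3 after MI (Q150X left, WT right; points are libraries and bars group means). For every gene but Rgcc the lower of the 2 Q150X day-3 EC libraries, replicate 2, lies well below the other 3, and in CM Lpl and Cd36 are at 1328 CPM or more while Car4, Tcf15 and Rgcc are at 14.2 CPM or less.

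These counts turned on single Q150X libraries of both times, with those of day 3 given first. Without replicate 2, which left 1 Q150X library at day 3 assumed to vary like the other groups, 7 genes fell: the 5 above, with Fabp4 at -2.21 and Cd36 at -1.78, and Meox2 (-1.16) and Tcf15 (-1.15), where 37.5% of all genes were called in either direction. Without replicate 1, 9 fell, where 59.1% of all genes were called. Without replicate 1 or replicate 3 at homeostasis 2 fell, Fabp4 and Rgcc, which were called in all 5 fits that left out a library; 21.3% of all genes were called in each of these 2 fits. DESeq2 called 9 of the 10 genes and 44.5% of all genes, and scaling by library size alone 9 and 33.8%.

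Endothelial markers fell along with the members in these libraries. In Q150X EC 7 of 12 endothelial identity genes fell (median -2.08), and they summed to 5270 and 1001 CPM at day 3, against 12175 to 14062 CPM at homeostasis. In WT EC 0 of 12 were called (median -0.69), with sums of 7805 and 8158 CPM at day 3, against 13056 to 14609 CPM at homeostasis. All 8 macrophage and leukocyte genes rose in both genotypes, and summed to 2448 to 5844 CPM in Q150X EC at day 3, against 82.2 to 165 CPM at homeostasis, and to 2549 to 3266 CPM in WT EC, against 118 to 147 CPM; their part in the result was not tested. Relative to the endothelial mean, Fabp4 was lower by 0.96 in Q150X and 0.82 in WT and Cd36 by 0.50 and 0.65, with no overlap between times, while Lpl was higher, at 1.65 in Q150X and 1.42 in WT, also with no overlap. Of the other called Q150X falls, Car4 was at -0.34 in Q150X on this scale, and Rgcc and Angptl4 were at 1.18 and 0.47, overlapping between times. In WT these 3 were at -0.71, -0.21 and 0.41. Gpihbp1 (0.16 in Q150X and 0.27 in WT) and Aqp1 (0.35 and 0.41) were above 0 as well. The Rgcc mean joined unlike Q150X day-3 libraries. Its level relative to the endothelial mean was -1.19 in 1 and 1.38 in the other, against -1.44 to -0.81 at homeostasis. Macrophages make LPL as well.

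Of the pathway genes in day-3 EC, Hilpda (3.31 in Q150X, 3.22 in WT), Lrp1 (2.81 and 3.24), Slc27a1 (1.97 and 1.76) and Hif1a (1.21 and 1.42) rose in both genotypes, and no other of the 3 lists was called in WT. In Q150X 3 of 17 regulators rose, Rbpj (1.25) being the third, and 4 fell, namely Notch1 (-1.14), Nrp1 (-2.04), Aplnr (-2.45) and Epas1 (-1.91). Of 17 uptake genes 4 rose, with Slc27a6 (5.47) and Acsl4 (0.77), and 4 fell: the caveola genes Cav1 (-2.08), Cavin1 (-2.14) and Cavin2 (-2.49), and Slc27a3 (-1.07). Of 12 LPL-handling genes measured, Lmf1 rose (0.59) and Pcsk5 (-3.43), a proprotein convertase, and Lmf2 (-0.87) fell.

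In cardiomyocytes, Lpl and Cd36, the members most abundant in muscle, were not called at day 3 in either genotype. Lpl had 7057, 6835 and 5408 CPM in Q150X CM at day 3, against 7842, 6535 and 7133 CPM at homeostasis (-0.16 ± 0.13), and 5907, 6534 and 6843 CPM in WT CM at day 3, against 5986, 7455 and 7538 CPM at homeostasis (-0.12 ± 0.13). Cd36 had 1328, 1650 and 1525 CPM in Q150X CM at day 3, against 1653, 1637 and 1418 CPM at homeostasis (-0.06 ± 0.12), and 1418, 1561 and 1850 CPM in WT CM, against 1632, 1936 and 1759 CPM (-0.14 ± 0.12). Times overlapped in both genotypes for both genes. Angptl4 had 6.74, 11.5 and 12.8 CPM in Q150X CM at day 3, against 1.23, 6.16 and 0.831 CPM at homeostasis (1.88 ± 0.77, edgeR adjusted p = 0.103), and 20.8, 5.54 and 8.80 CPM in WT CM at day 3, against 6.54, 2.38 and 4.02 CPM at homeostasis (1.45 ± 0.75). The Q150X libraries did not overlap, but the gene was not called.

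In Q150X CM 0 of 10 genes were called by edgeR, where 14.9% of all genes rose and 12.1% fell. Of the 10, 2, Fabp4 and Angptl4, passed an unadjusted p under 0.05, against 5842 of all 15169 genes tested. DESeq2 called 1, Angptl4, against 4479 of all genes. Without replicate 2 of the Q150X CM at homeostasis edgeR called Angptl4 as well, at 3.33, the highest estimate when a library was left out. In WT CM 3 fell and 0 rose, where 7.22% of all genes fell and 10.1% rose. Rgcc had 1.86, 2.83 and 2.40 CPM in WT CM at day 3, against 6.54, 14.2 and 7.997 CPM at homeostasis (-2.01 ± 0.38). Car4 had 1.33, 1.68 and 2.06 CPM at day 3, against 2.62, 11.9 and 5.10 CPM at homeostasis (-1.95 ± 0.51), and Aqp1 had 19.6, 33.2 and 29.2 CPM at day 3, against 67.6, 127 and 56.8 CPM at homeostasis (-1.61 ± 0.38). Replicate 2 was highest at homeostasis for all 3. That library was also highest for the endothelial identity genes, which summed to 561 CPM in it and to 274 and 242 CPM in the other two, and their part in the result was not tested. Rgcc kept its call in 6 of 6 fits that left out a library, Car4 in 3 (lost without replicate 2 at homeostasis, or replicate 1 or 2 at day 3) and Aqp1 in 4 (lost without replicate 1 or 3 at day 3).

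Several pathway genes moved in CM of both genotypes. Fabp5, a fatty acid binding protein, rose by 3.00 in Q150X and 1.76 in WT, Acsl5 by 2.20 and 1.33, Acsl4 by 0.94 and 0.53 and Cavin1 by 0.75 and 0.51, while Vldlr (-0.73 and -0.69) and Acsl1 (-0.53 and -0.48) fell. In all, 7 uptake genes of 16 measured rose and 3 fell in Q150X CM, and 4 rose and 2 fell in WT CM. Of 11 LPL-handling genes, 4 rose and 2 fell in Q150X, and 3 rose and 1 fell in WT; Sdc4 (1.07 in Q150X, 0.80 in WT), Apoe (2.30 and 1.75) and Sdc1 (1.79 and 0.86) rose and Lmf1 (-0.71 and -0.46) fell in both. Of 17 regulators, 4 rose and 7 fell in Q150X, and 3 rose and 6 fell in WT; Hif1a (0.92 and 0.60), Hilpda (1.26 and 1.28) and Meox1 (1.54 and 1.34) rose in both, and Esrra (-0.59 and -0.40), Vegfb (-0.53 and -0.48), Ppard (-0.79 and -0.54), Rxra (-0.55 and -0.66) and Epas1 (-0.51 and -0.66) fell in both. All 8 macrophage and leukocyte genes also rose in both, and summed to 104 to 269 CPM in Q150X CM at day 3, against 2.30 to 3.93 CPM at homeostasis, and to 102 to 189 CPM in WT CM, against 4.82 to 11.3 CPM; their part in the result was not tested.

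**Figure D3:**
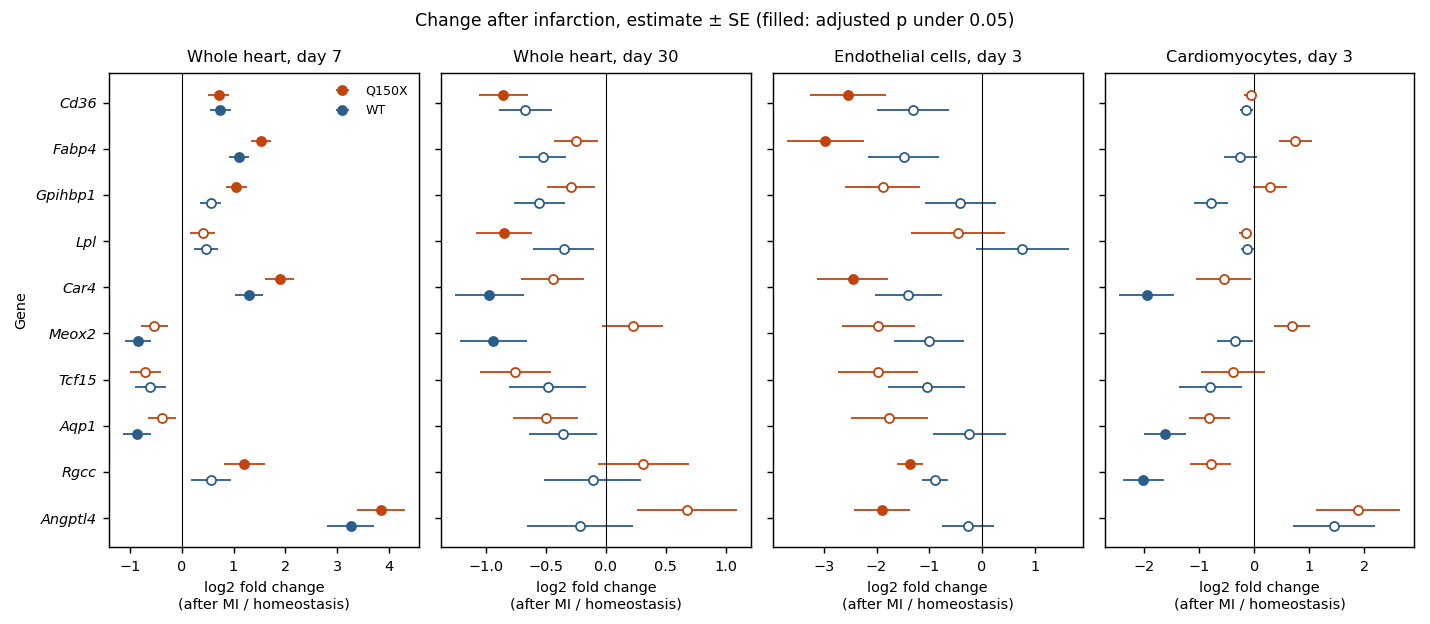
Log2 fold change after MI over homeostasis of each gene, with its SE, in whole hearts at day 7 and day 30 and in EC and CM at day 3 (Q150X above, WT below, filled where the adjusted p was under 0.05). The day-7 panel holds all the called rises, led by Angptl4 at 3.85 in Q150X and 3.26 in WT, and the called WT falls of Meox2 and Aqp1, and the other 3 panels hold called falls only.

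Between the genotypes none of the 10 genes was called in any of 7 comparisons. In hearts, edgeR called 0 of the 10 at homeostasis, at day 7 and at day 30, where 0%, 0% and 0.443% of all genes were called. An unadjusted p under 0.05 was met by 0, 0 and 3 of the 10, against 504, 561 and 2481 of all 17845 genes tested. DESeq2 called 0 of the 10 each time, against 3, 9 and 449 of all genes. In EC edgeR called 0 at homeostasis and at day 3, with 0% of all genes called at both. An unadjusted p under 0.05 was met by 1 and 1 of the 10, against 168 and 4223 of all 18223 genes tested. DESeq2 called 0 of the 10 at both, against 1 and 2281 of all genes. In CM edgeR called 0 at homeostasis and at day 3, with 0% of all genes at both. An unadjusted p under 0.05 was met by 4 and 0 of the 10, against 2009 and 254 of all 15169 genes tested. DESeq2 called 0 of the 10 at both, against 244 and 3 of all genes. A missed threshold does not show that the genotypes were alike: the SE of these estimates ran as high as 0.97 on the log2 scale, for Lpl in EC at day 3.

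In hearts at day 30, Lpl had 2860, 3159, 2189 and 2925 CPM in Q150X, against 4550, 3575 and 4022 CPM in WT. Every Q150X library was below every WT library, the only gene of the 10 for which that was so at day 30, where it was so for 9.32% of all genes, and the estimate was -0.54 ± 0.24 (edgeR adjusted p = 0.306). Estimates ran from -0.62 to -0.45 when 1 library was left out. The cardiomyocyte genes also summed lower there, to 22892 to 35462 CPM in Q150X, against 38540 to 43156 CPM in WT, and their part in the result was not tested. Aqp1 was at -0.68 ± 0.27, with 196 to 301 CPM in Q150X and 285 to 479 CPM in WT, and Meox2 at 0.59 ± 0.26, with 12.2 to 19.9 CPM in Q150X and 9.20 to 14.8 CPM in WT.

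In uninjured hearts 9 of the 10 estimates were below 0, with a median of -0.36 against 0.03 over all genes. The lowest was Meox2 (-0.57 ± 0.27), with 10.1, 19.3 and 13.9 CPM in Q150X, against 25.6, 19.5 and 19.4 CPM in WT. With all 3 heart libraries that stood apart left out, replicate 1 of both genotypes among them, Meox2 was at -0.23. The estimates ran from there to 0.50 for Tcf15. In uninjured EC 9 of the 10 were above 0, with a median of 0.39 against 0.005 over all genes. The exception was Meox2 (-0.20 ± 0.57), whose 158, 168 and 165 CPM in Q150X lay below the 178, 203 and 182 CPM in WT. Rgcc had 430, 285 and 421 CPM in Q150X EC, against 220, 290 and 297 CPM in WT EC (0.49 ± 0.21, edgeR adjusted p = 1). Lpl was at 0.78 ± 0.80 there through 1 library, Q150X replicate 3 at 2671 CPM. That library was also the highest Q150X EC library at homeostasis for Aqp1 (5223, against 2439 and 2138 CPM), Cd36, Fabp4, Gpihbp1, Car4 and Angptl4. Rgcc, Tcf15 and Meox2 were not highest in it. When 1 library was left out, the lowest estimates were -0.26 for Lpl, 0.01 for Aqp1, 0.04 for Cd36, 0.05 for Gpihbp1 and 0.08 for Fabp4. They were 0.14 for Angptl4 and 0.16 for Car4.

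In uninjured CM 9 of the 10 estimates were below 0, with a median of -0.68 against 0.005 over all genes. The lowest was Rgcc (-1.14 ± 0.37), with 3.16, 6.78 and 2.96 CPM in Q150X, against 6.54, 14.2 and 7.997 CPM in WT. Gpihbp1 (-0.83 ± 0.31), Meox2 (-0.80 ± 0.34) and Fabp4 (-0.74 ± 0.30) also passed an unadjusted p under 0.05, where 2009 of all 15169 genes did. WT replicate 2 was the highest WT library for each of these and for Rgcc, with Fabp4 at 138 CPM, against 54.0 and 59.0 CPM. When 1 library was left out, estimates ran from -0.97 to -0.18 for Fabp4 and from -1.25 to -0.37 for Gpihbp1. They ran from -1.05 to -0.49 for Meox2 and from -1.64 to -0.75 for Rgcc. The 12 endothelial identity genes had a median of -0.93 in the same comparison and summed to 155 to 243 CPM in Q150X CM, against 242 to 561 CPM in WT CM; their part in the result was not tested. Lpl (0.04 ± 0.13) and Cd36 (-0.18 ± 0.12), which muscle cells express, had small differences.

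In day-3 EC 9 of the 10 estimates were below 0, with a median of -0.94 against 0.01 over all genes. Of the 10, 5 genes (Cd36, Fabp4, Gpihbp1, Meox2 and Angptl4) had both Q150X libraries below both WT libraries, as had 25.2% of all genes. Angptl4 had 19.5 and 4.78 CPM in Q150X, against 25.4 and 33.0 CPM in WT (-1.28 ± 0.55, edgeR adjusted p = 0.214). The 2 Q150X libraries differed so much that the result turned on them: without replicate 1, 8 of the 10 were called lower, where 51.7% of all genes were called in either direction, and without replicate 2, 0 were called by edgeR, where 6.04% of all genes were. In day-3 CM estimates lay between -0.18 ± 0.71 for Angptl4 and 0.41 ± 0.51 for Car4, and at day 7 in hearts between -0.26 ± 0.24 for Meox2 and 0.27 ± 0.28 for Tcf15.

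**Figure D4:**
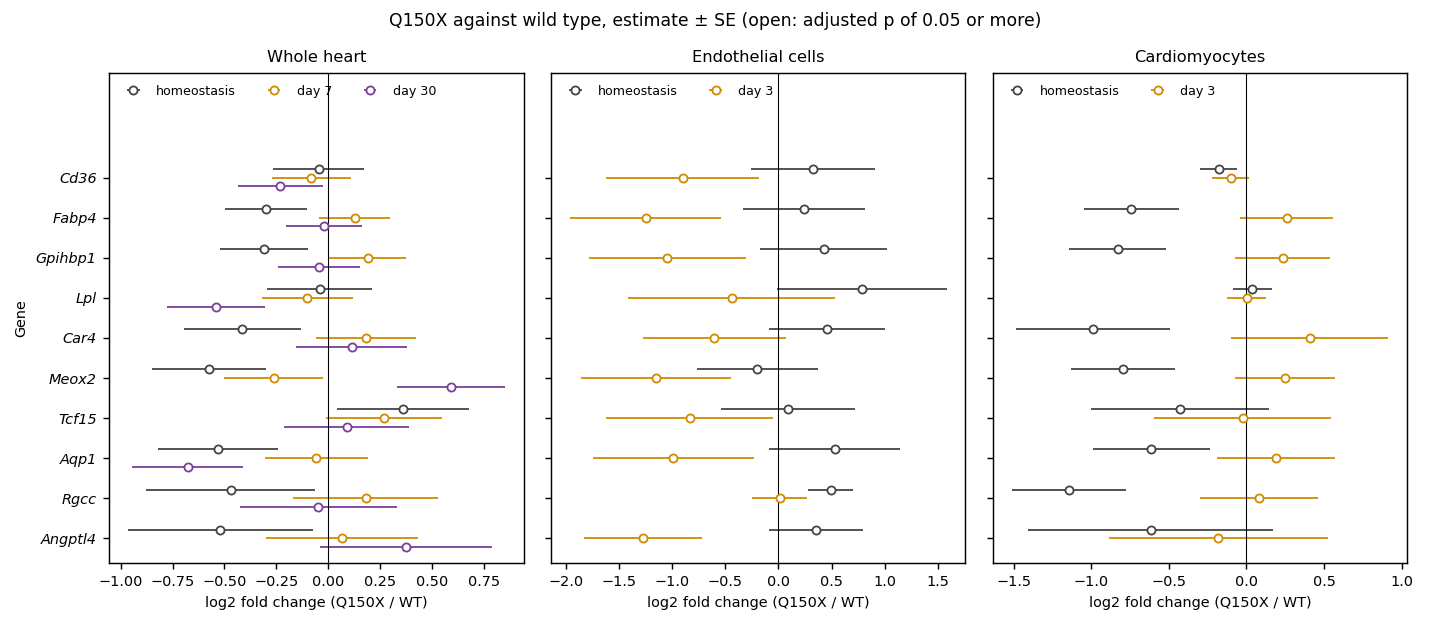
Log2 fold change of Q150X over WT for each gene, with its SE, in whole hearts, EC and CM at each time. All 70 points are open because none had an adjusted p under 0.05; at day 30 in hearts Aqp1 and Lpl lie at -0.68 and -0.54 and Meox2 at 0.59.

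The response to MI was also set against genotype, as an interaction (the Q150X change minus the WT change). By edgeR 0 of the 10 genes were called in hearts at day 7 or day 30, in EC or in CM, with 0% of all genes called in each. An unadjusted p under 0.05 was met by 0, 1, 1 and 4 of the 10. Of all genes it was met by 588 and 1724 of 17845 in hearts, 2291 of 18223 in EC and 1186 of 15169 in CM. DESeq2 called 0 of the 10 in each, against 1, 46, 472 and 19 of all genes. Meox2 at day 30 had the estimate farthest from 0 relative to its SE in hearts, 1.16 ± 0.38 (edgeR adjusted p = 0.414): its change was 0.22 ± 0.26 in Q150X and -0.94 ± 0.28 in WT. Genes called in one genotype at day 7 or day 30 and not in the other are therefore not shown to differ between genotypes. In EC the interaction was called for 8 of the 10 genes without Q150X day-3 replicate 1, where 43.2% of all genes were called, and for 0 without replicate 2, where 1.82% were. None of the 48 pathway genes was called in a genotype or interaction comparison.

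Over the 14 group means the members were compared as a description. Groups share compartments, and CPM were scaled separately in each compartment. Fabp4, Gpihbp1, Car4, Meox2, Tcf15, Aqp1 and Rgcc ran much alike, with Pearson r from 0.865 (Car4 with Meox2) to 0.988 (Fabp4 with Gpihbp1). Gpihbp1 with Car4 was at 0.981 and Tcf15 with Aqp1 at 0.979. Against these genes Cd36 ran from r = 0.480 to 0.652 and Angptl4 from 0.498 to 0.761. Lpl was negatively correlated with all 9 others, down to r = -0.84 with Meox2. Highest over lowest group mean was 7.86 for Cd36 and 9.38 for Lpl, and from 34.9 for Angptl4 to 165 for Tcf15 in the rest. Outside the list, the gene most like each of 9 members in log2 CPM, of 13863 compared, was Asb4 for Cd36 (r = 0.983), Cyp4b1 for Fabp4 (0.994), Lims2 for Gpihbp1 (0.996), Lrrfip2 for Lpl (0.993) and Rbp7 for Car4 (0.990). It was Fat4 for Meox2 (0.996), Rflnb for Tcf15 (0.993), Tbc1d9b for Aqp1 (0.990) and Map4k2 for Rgcc (0.992). Angptl4 alone had its highest group means in hearts at day 7 (95.6 ± 16.3 CPM in Q150X and 91.2 ± 23.2 CPM in WT, SD, n = 4 each), ahead of EC at homeostasis (44.9 ± 11.4 CPM in Q150X and 35.2 ± 6.69 CPM in WT, SD, n = 3 each).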

How the data were processed

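Bulk RNA-seq was deposited as raw read counts per gene for 43 libraries; per the labels, total RNA was extracted with Trizol, and per the submitters' processing notes HISAT2, kallisto and the GRCm39 build were used, while no source used here names the counter or its strand setting. The authors' deposited counts were used unchanged, and symbols were found for 52029 of 57010 gene IDs. The 10 genes and all gene lists were chosen with earlier results of these data known. For hearts, EC and CM separately, counts were filtered with filterByExpr (minimum count 10, minimum total 15), scaled by TMM and tested with edgeR 4.0.16 (robust quasi-likelihood, R 4.3.3), with p-values adjusted by Benjamini-Hochberg over 17845, 18223 and 15169 genes and called under 0.05. All 10 genes passed the filter in each. EC were compared with CM and heart in 1 fit of 18 libraries. DESeq2 1.42.0 and other settings were alternatives. The pipeline was tested on simulated data. Level relative to endothelial genes is log2(CPM + 1) minus its mean over 12 endothelial genes. Pathway genes named are up to 4 called per list and direction with the smallest p; a gene outside that rule is named only where a count of 5 or fewer called for it or where both genotypes are given. Same-numbered Q150X and WT homeostasis hearts deviated together (r = 0.689, 0.488 and 0.528), as did Q150X hearts at day 7 and homeostasis (0.185, 0.143 and 0.107). Number was therefore a block in an alternative fit. Deviations were taken from group means, so replicate 1 of both genotypes, which stood apart, bears on every homeostasis r. Promoters are from RefSeq. No molecular identifiers are stated, so counting precision covers reads only. Results for a few genes of the pathway lists and the likeness of Angptl4 to other genes are not reported here.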

Additional observations from a re-analysis of the deposited data

How the results depend on the processing

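Counts below are of the 10 genes called. Of 2700 recomputed single-gene values, 2569 kept their side of the threshold (112 of these, never called, changed sign), 63 lost and 68 gained a call, and 0 called values reversed. At day 30 in WT hearts, 2 genes were called by edgeR, 0 with library size alone (chosen after seeing the data), 1 with no filter, 4 with DESeq2, 6 without the libraries that stood apart, and 0 to 3 when 1 library was left out. In Q150X hearts at day 30, 2 were called, 6 without those libraries and 1 to 6 when 1 library was left out. At day 7 in WT hearts the range was 3 to 5, against 6. In EC at day 3, Q150X had 5 called, 9 with library size alone, 9 with DESeq2, 2 with the replicate block and 2 to 9 when 1 library was left out; WT had 0, 1 with DESeq2 size factors and 1 with DESeq2. The EC day-3 genotype difference and interaction each had 0, and 0 to 8 when 1 library was left out. In CM at day 3, Q150X had 0 called, 2 with library size alone, 1 with no filter, 1 with DESeq2 and 0 to 1 when 1 library was left out, and WT had 3, and 1 to 3. With no filter, 2 were called for genotype in CM at homeostasis and 2 for the CM interaction, against 0. The cause was not tested. The replicate block also ended the calls of Rgcc (day 7, Q150X hearts), Aqp1 (day 7, WT hearts), Angptl4 (EC against heart) and Cd36, Car4 and Angptl4 (day 3, Q150X EC), and changed no other call; the 2 same-numbered Q150X EC pairs of day 3 and homeostasis did not deviate together (r = -0.00772 and -0.012). Over all genes, the count for the day-30 heart genotype difference was 79, and 46 to 476 under other settings, with 0 to 223 when 1 library was left out; for the EC day-3 genotype difference it was 0, 2281 with DESeq2, 1151 without the library that stood apart and 0 to 10498 when 1 library was left out; for CM genotype at homeostasis it was 0, 543 with no filter and 244 with DESeq2. At day 30 in WT hearts it was 1594, 1001 with no filter, 2780 with DESeq2 and 6221 without the libraries that stood apart, and in Q150X hearts 5307 and 8091. In EC at day 3 it was 1734 in WT, 3466 with DESeq2 and 686 with the block, and 6159 in Q150X, 3354 with the block. In CM at day 3 in WT it was 2634, and 4340 with library size alone. The interaction had 0 in EC, 472 with DESeq2, and 0 in CM, 219 with no filter. Pathway genes were not refitted. Day-3 EC had 2 libraries per genotype, which limits precision.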
